A study of Rattus norvegicus with 32 samples.

Results

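Car4, Plvap and Cd36 are 3 genes known for their expression in lung capillary endothelium. They were chosen by gene symbol in the platform annotation and are 3 of 5022 genes named on the array, each with 1 probe printed as 2 spots. All 3 probes were among the 6112 tested, which had values on at least 2 arrays of every group (4999 named genes). Their Entrez identifiers are 29242 for Car4, 56765 for Plvap and 29184 for Cd36.

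The capillary wall of the lung is a thin endothelium through which carbon dioxide and oxygen pass between blood and air. Car4 encodes carbonic anhydrase IV, an enzyme anchored to the luminal surface of these cells that interconverts bicarbonate and carbon dioxide, and in mice its high expression marks the capillary cells called aerocytes. Plvap encodes the plasmalemma vesicle associated protein, which forms the diaphragms that close caveolae and fenestrae, and in mice it marks the general capillary cells. Cd36 encodes a class B scavenger receptor that takes up long-chain fatty acids and oxidised lipoproteins and binds thrombospondin, and it is also made by macrophages, platelets and fat cells.

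The study set lung RNA of male Sprague-Dawley rats of 280 to 300 g against a pool of RNA from organs of untreated rats on 2-colour arrays, 1 array a sample. Bled rats had carried arterial catheters and a telemetry device, lost 40% of their estimated blood volume, and were killed at 1, 3, 16, 24, 48 or 72 h (3 samples each) or at 6 h (5 samples). Sham rats (6 samples) were instrumented but not bled, and control rats (3 samples) were neither instrumented nor bled. The time at which sham lungs were taken is not settled by the labels. All groups were of 1 sex and strain and no genetic change is labelled in any group. The labels number the samples but do not tie them to animals, so p-values measure the spread between these samples. The pool is labelled as 10 organs of which 9 are named, and lung is 1 of these.

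Values are log2 ratios of lung over pool after each array was centred on its median, so 0 is the level of the middle probe and a difference of 1 is a factor of 2. Sham replicate 2 and 16 h replicate 3 were left out of the comparisons because their liver genes stood high, with medians over 27 liver genes of 2.62 and 2.09, while no other array exceeded 0.36. The comparisons therefore rest on 30 arrays, with 5 sham arrays and 2 arrays at 16 h. Each array had 13056 spots, of which 12151 to 12895 carried a value, and the 2 spots of a probe correlated at 0.618 to 0.875 within an array. Precision is limited by the small number of arrays. Endothelial transcripts were present: each of 19 other endothelial identity genes on the array had a mean log2 ratio above 0 over the 30 arrays, led by the receptor genes Calcrl (2.01) and Thbd (1.40), with the lowest at Nos3 (0.0027) and Ace (0.06).

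Relative to the pool Plvap stood clearly above the middle probe, Car4 moderately above it and Cd36 near it. Over the 30 arrays the log2 ratio of Plvap averaged 0.97 ± 0.58 (SD), and it was above 0 on 27 arrays. Car4 averaged 0.38 ± 1.15 and was above 0 on 22 arrays. Cd36 averaged -0.04 ± 0.47 and was above 0 on 11 arrays. These ratios depend on each gene's level in the other organs of the pool, so they do not rank the 3 genes by abundance. Within groups the pooled SD was 0.87 for Car4, 0.45 for Plvap and 0.39 for Cd36, so Car4 varied most between samples of 1 group. The 2 spots of Plvap correlated at 0.975 over the 30 arrays and differed by a median of 0.09. The spots of Cd36 correlated at 0.877 and those of Car4 at 0.861, with median differences of 0.12 and 0.21. The spots of Car4 were furthest apart on 48 h replicate 2, by 1.02.

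**Figure D1:**
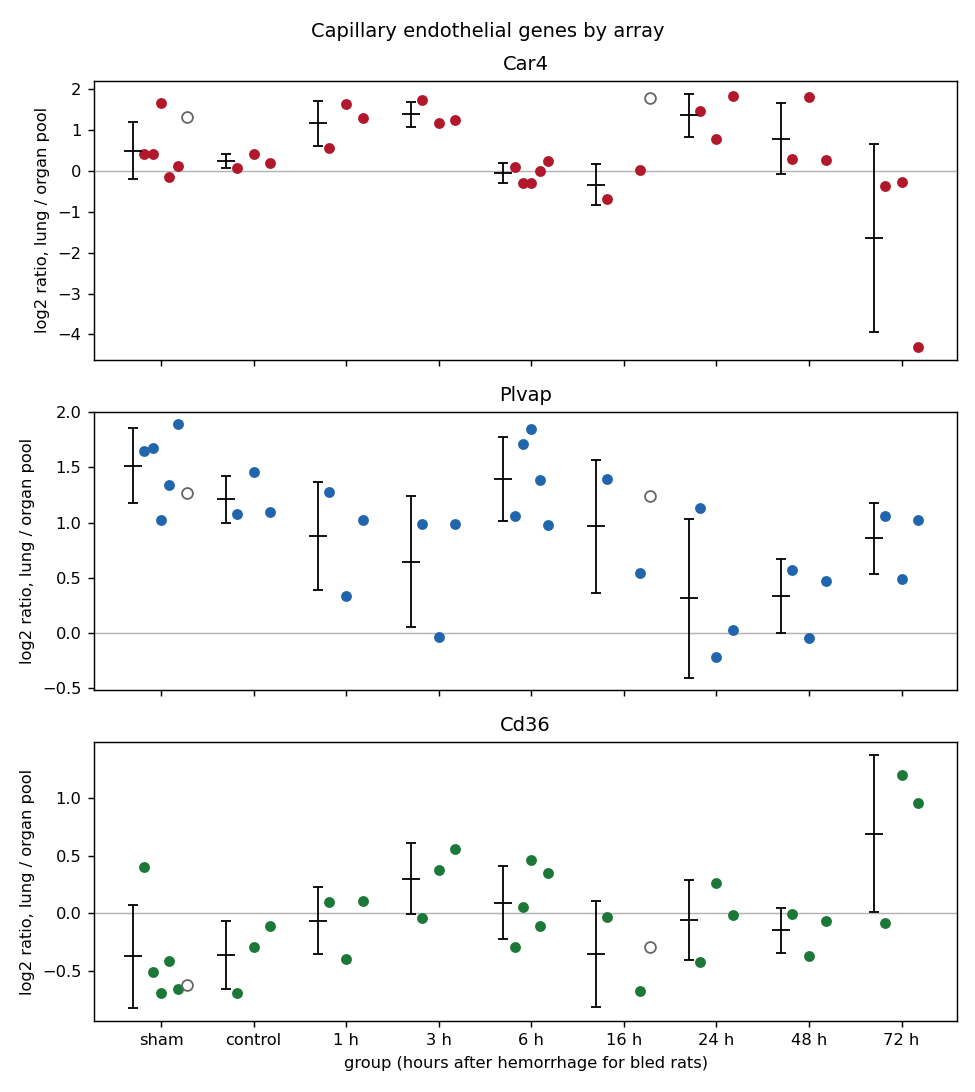
Centred log2 ratio of lung over organ pool (y axis) on each array for Car4, Plvap and Cd36, by group (x axis), with group mean and SD as black bars. Open circles are sham replicate 2 and 16 h replicate 3, which were left out of the means. Plvap lies below every sham value on 2 of 3 arrays at 24 h and on all 3 at 48 h, Car4 moves up and down between times and has 1 array at -4.31 at 72 h, and Cd36 is highest on 2 of the 3 arrays at 72 h.

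Instrumentation without bleeding made no detectable difference to the 3 genes. The Car4 log2 ratio was 0.42, 0.42, 1.67, -0.14 and 0.11 on the 5 sham arrays, against 0.08, 0.42 and 0.20 on the 3 control arrays. Plvap read 1.65, 1.68, 1.03, 1.35 and 1.89 on sham arrays, against 1.08, 1.46 and 1.10 on control arrays. Cd36 read 0.40, -0.51, -0.69, -0.42 and -0.66 on sham arrays, against -0.69, -0.29 and -0.11 on control arrays. Sham and control values overlapped for each gene, and the highest sham value was a single array for Car4 (replicate 4) and for Cd36 (replicate 1). The log2 differences, sham minus control, were 0.26 ± 0.60 (SE) for Car4, 0.31 ± 0.32 for Plvap and -0.01 ± 0.29 for Cd36, with 95% intervals of -0.96 to 1.49, -0.36 to 0.97 and -0.61 to 0.58. Each had an adjusted p of 0.9997 or more. limma called 0 of the 6112 probes in this comparison, a share of 0%, and 291 had an unadjusted p under 0.05.

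Plvap lay below sham in the mean at each of the 7 times after hemorrhage, lowest at 24 and 48 h, and its fall passed the test at 24 h. Its log2 ratio was 1.13, -0.22 and 0.02 on the 24 h arrays, against 1.65, 1.68, 1.03, 1.35 and 1.89 on the sham arrays. At 24 h 2 of the arrays lay far below every sham array and the third lay within the sham range. Plvap fell at 24 h by 1.20 ± 0.32 on the log2 scale (SE, 3 arrays against 5, adjusted p = 0.0387 by limma over all probes). It alone of the 3 genes was called at 24 h, where 3.52% of all probes were called and 2.65% were called lower. Without 24 h replicate 2 the difference was -0.94 (adjusted p = 0.128), and without 24 h replicate 3 it was -1.06 (adjusted p = 0.204). The call was also lost without sham replicate 1, 3, 5 or 6, with adjusted p of 0.0693, 0.0792, 0.0511 and 0.0776.

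At 48 h Plvap read 0.57, -0.05 and 0.47, and all 3 values lay below the lowest sham value of 1.03. Over all probes 8.07% had every 48 h array below every sham array. The difference was close to that at 24 h, -1.19 ± 0.32 (SE), but it missed the threshold (adjusted p = 0.0619), and 0 of the 3 genes were called at 48 h beside 1.18% of all probes. At 3 h Plvap read 0.99, -0.04 and 0.99, again below every sham array, as was so for 5.09% of probes, with a difference of -0.87 ± 0.32 (adjusted p = 0.119). At 1 h it read 1.28, 0.33 and 1.02, at 16 h 1.39 and 0.54, and at 72 h 1.06, 0.48 and 1.03. The sham range was entered by 1 array at 1 h, 1 at 16 h and 1 at 72 h, where a further array lay just below it. The differences from sham were -0.64 ± 0.32, -0.55 ± 0.37 and -0.66 ± 0.32, with adjusted p of 0.469, 0.508 and 0.225. Without 1 h replicate 2 the first was -0.37, and without 16 h replicate 2 the second was -0.12.

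At 6 h Plvap was near its sham level. It read 1.06, 1.71, 1.85, 1.38 and 0.98, which overlaps most of the sham range, and the difference from sham was -0.12 ± 0.28 with a 95% interval of -0.70 to 0.45. Against the 3 h arrays the 6 h mean was 0.75 ± 0.32 higher (adjusted p = 0.175). Of the 22 bled arrays 20 lay below the sham mean and 14 lay below every sham array, while 0 lay above every sham array. Bled arrays had a median of 0.99 and ran between -0.22 and 1.85, against 1.52 ± 0.34 on sham arrays (mean ± SD, n = 5). Averaged over the 7 times with equal weight, Plvap was at -0.75 ± 0.22 relative to sham, just outside the threshold (adjusted p = 0.0547). In that comparison 3.4% of all probes were called and 1.98% were called lower. Set against the control arrays the same average was -0.44 ± 0.27 (adjusted p = 0.298), where 8.07% of probes were called. The sham mean itself was 0.31 above the control mean, a difference within its error.

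The order of the Plvap group means was sham 1.52, 6 h 1.40, control 1.21, 16 h 0.97, 1 h 0.88, 72 h 0.85, 3 h 0.64, 48 h 0.33 and 24 h 0.31. No neighbours in this order differed by more than the larger of their SDs. The late times (24, 48 and 72 h) averaged 0.47 ± 0.20 below the early times (1, 3 and 6 h), with an adjusted p of 0.144, where 7.12% of probes were called. In whole lung RNA fewer cells of a type and less RNA per cell cannot be told apart, so a lower ratio of an endothelial gene does not say which occurred.

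Car4 lay above sham at some times after hemorrhage and below it at others, and it was lowest at 72 h. Its log2 ratio was -0.36, -0.27 and -4.31 on the 72 h arrays, against 0.42, 0.42, 1.67, -0.14 and 0.11 on the sham arrays. All 3 values at 72 h lay below every sham array, as was so for 9.18% of all probes, but 2 of them lay close to the lowest sham value of -0.14. Car4 fell at 72 h by 2.14 ± 0.60 on the log2 scale (SE, 3 arrays against 5, adjusted p = 0.0350). With Cd36, 2 of the 3 genes were called at 72 h, where 5.87% of all probes were called, 3.83% lower and 2.05% higher.

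The size of the Car4 difference at 72 h rested on 1 spot. On 72 h replicate 3 only 1 of the 2 spots carried a value, a linear ratio of 0.05, while the other spot had none. Deposited ratios are multiples of 0.01, so a log2 value so near the lowest ratio is coarse, and only 45 of that array's 12623 spots (0.357%) were as low. Without this array, or without spots at or below a ratio of 0.05, the difference was -0.81, with adjusted p of 0.386 and 0.247. The call was also lost without sham replicate 1, 3 or 4, with differences of -2.16, -2.16 and -1.85 and adjusted p of 0.0533, 0.0556 and 0.0708. On the other 72 h arrays the first spots read -0.03 and 0.04 and the second spots -0.69 and -0.59, so the spots also differed there.

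At the earlier times Car4 was above sham in the mean at 1, 3, 24 and 48 h and below it at 6 and 16 h. It read 0.56, 1.65 and 1.29 at 1 h and 1.73, 1.17 and 1.25 at 3 h. It read 0.09, -0.30, -0.30, 0.00 and 0.26 at 6 h, and -0.68 and 0.02 at 16 h. The 5 arrays at 6 h were the tightest of the bled groups (SD 0.24) and lay together below every 3 h array, as was so for 6.61% of all probes. At 24 h it read 1.46, 0.79 and 1.83, the last from 1 spot, and at 48 h it read 0.30, 1.81 and 0.27. Sham replicate 4, at 1.67, kept the sham range wide, and the values at each of these times overlapped it. The differences from sham were 0.67 ± 0.60 at 1 h, 0.89 ± 0.60 at 3 h, -0.55 ± 0.52 at 6 h, -0.83 ± 0.68 at 16 h, 0.86 ± 0.60 at 24 h and 0.30 ± 0.60 at 48 h. None of these 6 was called, with adjusted p between 0.382 and 0.852. The group medians over 7 neutrophil genes were 0.54, 1.02, 1.19 and 0.78 at 1, 3, 24 and 48 h, and 0.37 and -0.07 at 6 and 16 h. The sham median of these genes was -0.09, so at 6 h they stood above sham while Car4 stood below it. At 72 h, where Car4 was lowest, their median was 0.58, also above sham. Medians over 27 liver genes lay above every sham array at 3 h (-0.47 to -0.33) and 24 h (-0.39 to -0.04), against at most -0.54 on sham arrays. The 48 h array with high Car4 (replicate 2) had a liver median of 0.18, and 6 h replicate 4, where Car4 read 0.00, had one of 0.36. The part of these cells in the Car4 values was not tested. limma called 2.98% of all probes at 3 h and 0.0654% at 16 h. At 1 h and 6 h it called 0%, while 667 and 1147 of 6112 had an unadjusted p under 0.05.

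Taking the 7 times together Car4 changed (F = 4.85, adjusted p = 0.0369), and it alone of the 3 was called in this joint test, beside 5.66% of all probes. Plvap had F = 3.89 (adjusted p = 0.0609) and Cd36 F = 2.56 (adjusted p = 0.142). With spots near the lowest ratio removed F was 5.99 (adjusted p = 0.0198). The joint call was lost in 6 of 27 fits that left out 1 array: sham replicate 3, 1 h replicate 2 or 3, 6 h replicate 2 or 3, or 16 h replicate 1, with adjusted p of 0.0502 to 0.0581. It was also lost with all 32 arrays (adjusted p = 0.0793), the replicate block (0.0677), only the compared groups (0.0503) and the second spot alone (0.0622). Averaged over the 7 times with equal weight Car4 lay -0.11 ± 0.41 from sham, and 12 bled arrays lay below the sham mean against 10 above it. A pair of comparisons between bled groups was added after the values were seen. The 72 h arrays were all below the 24 h arrays, as held for 9.57% of probes, and Car4 was 3.01 ± 0.67 lower on the log2 scale at 72 h than at 24 h (adjusted p = 0.0355, with 0.524% of probes called). Without 72 h replicate 3 that difference was -1.68 (adjusted p = 0.225), without 24 h replicate 1 it was -2.96 (adjusted p = 0.179), and without 24 h replicate 3 it was -2.77 (adjusted p = 0.0782). Between 6 h and 3 h Car4 differed by -1.43 ± 0.60 (adjusted p = 0.164, with 0.933% of probes called).

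The Car4 group means ran 3 h 1.38, 24 h 1.36, 1 h 1.17, 48 h 0.79, sham 0.50, control 0.23, 6 h -0.05, 16 h -0.33 and 72 h -1.65. Among neighbours in this order only control and 6 h differed by more than the larger of their SDs (0.28 against 0.24), and their values still overlapped. Late times averaged 0.66 ± 0.37 below early times (adjusted p = 0.274), and without 72 h replicate 3 the difference was -0.22.

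Cd36 tended to the upper side of sham after hemorrhage and was highest at 72 h. Its log2 ratio was -0.08, 1.20 and 0.96 on the 72 h arrays, against 0.40, -0.51, -0.69, -0.42 and -0.66 on the sham arrays. At 72 h 2 arrays lay above every sham array and the third lay below sham replicate 1. Cd36 rose at 72 h by 1.07 ± 0.29 on the log2 scale (SE, 3 arrays against 5, adjusted p = 0.0299). Without 72 h replicate 2 the difference was 0.81 (adjusted p = 0.219), and without 72 h replicate 3 it was 0.94 (adjusted p = 0.186). Without sham replicate 1, the 1 high sham array, it was 1.26 (adjusted p = 0.0139). Without sham replicate 3, 4, 5 or 6 the difference was 0.99 to 1.06 and just missed the threshold, with adjusted p of 0.0563, 0.0567, 0.0527 and 0.0577.

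Earlier the Cd36 values were nearer to sham. It read 0.10, -0.40 and 0.11 at 1 h, and -0.04, 0.38 and 0.56 at 3 h. It read -0.29, 0.06, 0.46, -0.11 and 0.35 at 6 h, and -0.03 and -0.68 at 16 h. At 24 h it read -0.43, 0.26 and -0.02, and at 48 h 0.00, -0.37 and -0.07. Because sham replicate 1 stood at 0.40, every one of these groups overlapped the sham range, although most of their values lay above the other 4 sham arrays. The differences from sham were 0.31 ± 0.29, 0.67 ± 0.29, 0.47 ± 0.25, 0.02 ± 0.33, 0.31 ± 0.29 and 0.23 ± 0.29 at 1, 3, 6, 16, 24 and 48 h, with adjusted p between 0.168 and 0.985. Of the 22 bled arrays 19 lay above the sham mean and 4 lay above every sham array. The bled arrays had a median of -0.01 and ran between -0.68 and 1.20, against a sham mean of -0.38 ± 0.45 (SD, n = 5). The equal-weight mean of the 7 times was 0.44 ± 0.20 above sham (adjusted p = 0.180) and 0.43 ± 0.24 above control (adjusted p = 0.257).

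The Cd36 group means ran 72 h 0.69, 3 h 0.30, 6 h 0.09, 24 h -0.06, 1 h -0.06, 48 h -0.15, 16 h -0.36, control -0.36 and sham -0.38, and no neighbours differed by more than the larger of their SDs. Late and early times differed by 0.05 ± 0.18 (adjusted p = 0.893, 95% interval -0.32 to 0.42). At 72 h Cd36 was 0.75 ± 0.32 above its 24 h level (adjusted p = 0.222), and at 6 h it was 0.21 ± 0.29 below its 3 h level (adjusted p = 0.707).

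**Figure D2:**
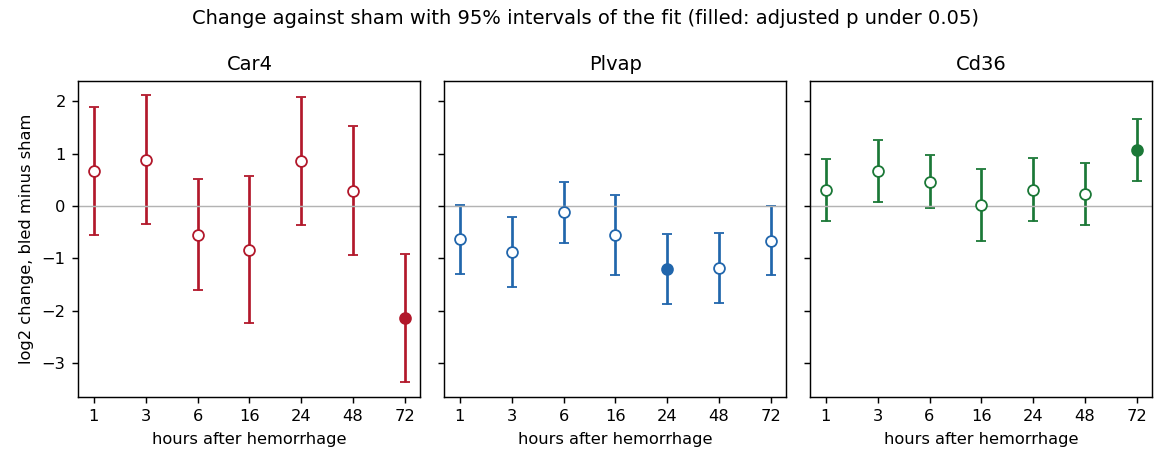
Log2 change from sham (y axis) with the 95% interval of the fit at each time in hours after hemorrhage (x axis) for Car4, Plvap and Cd36. Filled points have an adjusted p under 0.05: Car4 at 72 h (-2.14), Plvap at 24 h (-1.20) and Cd36 at 72 h (1.07).

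The 3 genes showed no common direction. Of the 21 differences from sham, 1 for each gene and time, 3 were called, 1 for each gene, beside 0% to 5.87% of all probes by time, and at 72 h the called genes went in opposite directions. Over the 30 arrays Car4 and Plvap had Pearson's r of -0.334 (permutation p = 0.0722, adjusted p = 0.108 over the 3 pairs) and Spearman's rho of -0.458 (permutation p = 0.0118, adjusted p = 0.0354). Without the 2 arrays farthest from the Car4 median r was -0.443 (adjusted p = 0.0533), and for deviations from the group means it was -0.309 (adjusted p = 0.142). In these settings rho was -0.444 and -0.378 (permutation test, adjusted p = 0.0565 and 0.0592). With all 32 arrays rho was -0.391 (adjusted p = 0.0825), so it passed 0.05 only in the main setting. Car4 and Cd36 had r = -0.385 (permutation p = 0.0404, adjusted p = 0.108) and rho = -0.134 (permutation p = 0.479, adjusted p = 0.479). Without 72 h replicate 3 and 24 h replicate 3 r was -0.149. For deviations from the group means r was -0.344 (adjusted p = 0.142) and rho -0.395 (permutation p = 0.0322, adjusted p = 0.0592). Plvap and Cd36 had r = -0.132 (permutation p = 0.487, adjusted p = 0.487) and rho = -0.176 (permutation p = 0.349, adjusted p = 0.479), without 24 h replicate 2 and 48 h replicate 2 r was -0.157, and within groups the sign turned (r = 0.045). The arrays of 1 group share their treatment, and the array medians that were subtracted ran between -0.377 and 0.0566.

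The probes whose pattern over the 30 arrays was most like each gene were looked up among 5096 probes with 1 symbol. For Plvap they were Ptgs2 (Pearson's r = 0.88), the inducible cyclooxygenase that makes prostaglandin precursors, then the kinase gene Tec, Fads3, Slc6a18 and Btc (0.84 to 0.83). Ptgs2 fell at 3 h (by 1.09) and at 24 h (by 1.22, adjusted p = 0.0253). Its mean was 0.16 ± 0.70 at 24 h (SD, n = 3), against 1.37 ± 0.35 on sham arrays (n = 5). For Car4 the closest were Smpx (0.83), the ribosomal protein gene Rps9 (0.82), Fmo5, Rassf5 and Cox6c-ps1 (0.81). For Cd36 they were the phosphatase subunit gene Ppp6c (0.78), Cnot7, Cep170, Srpk2 and Ptbp3 (0.65). These likenesses describe the 30 arrays and were not tested.

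Of 42 other endothelial identity genes 19 were on the array and tested. At 1, 6, 16, 24 and 48 h 0 of them were called, beside 0%, 0%, 0.0654%, 3.52% and 1.18% of all probes, which is near what those shares give. At 3 h 1 of 19 was called, beside 2.98% of all probes: Flt4, the receptor for VEGF-C, fell by 1.11 ± 0.20 (adjusted p = 0.0108). At 72 h Kdr, the main VEGF receptor of blood vessels, rose by 0.86 ± 0.24 (adjusted p = 0.0383) and Acvrl1, a receptor of the TGF-beta family, fell by 0.72 ± 0.22 (adjusted p = 0.0484). That is 2 of 19 at 72 h beside 5.87% of all probes. The median change of the 19 genes was -0.22 at 1 h, -0.04 at 3 h, 0.04 at 6 h, 0.01 at 16 h, -0.09 at 24 h, -0.18 at 48 h and -0.19 at 72 h, while the median over all probes stayed between -0.01 and 0.04. At 24 h Plvap, at -1.20, lay below all 19 of them, while at 48 h, at -1.19, it lay above Ramp2 (-1.27). At 72 h Cd36, at 1.07, lay above all 19, where Kdr was the highest, and Car4 lay below all 19, where Podxl was the lowest at -0.76.

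**Figure D3:**
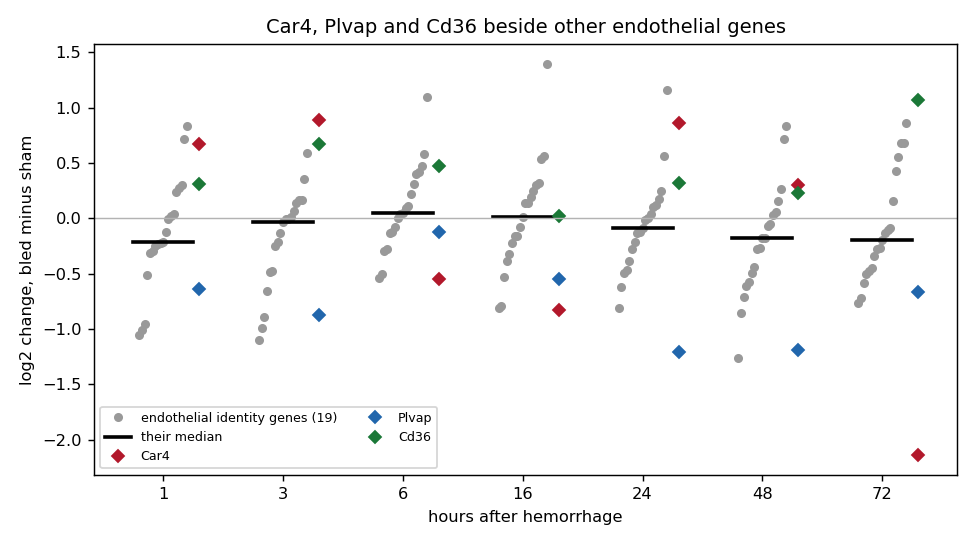
Log2 change from sham (y axis) at each time in hours after hemorrhage (x axis) for 19 endothelial identity genes (grey points), their median (black line) and Car4, Plvap and Cd36 (diamonds). Plvap lies below all grey points at 24 h, and at 72 h Car4 lies below them and Cd36 above them.

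Of 17 genes of endothelial activation 12 were tested. At 3 h 2 of the 12 were called, beside 2.98% of all probes: Ptgs2 and Ptgis, the prostacyclin synthase, which fell by 0.94 ± 0.20 (adjusted p = 0.0128). At 24 h only Ptgs2 was called, beside 3.52% of all probes, while 3 of the 12 lay above 0 and the median change was -0.28. At 72 h 0 were called, beside 5.87% of all probes, with a median change of -0.25. Among 11 of 18 other genes of lung capillary cells 1 was called at 3 h and 1 at 72 h, beside 2.98% and 5.87% of all probes. At 3 h 6 of the 11 lay above 0 and at 72 h 7 did, with median changes of 0.32 and 0.10. Rgcc, a regulator of the cell cycle, rose at 3 h by 0.97 ± 0.23 (adjusted p = 0.0245), and Kit, the stem cell factor receptor found on general capillary cells in mice, rose at 72 h by 1.11 ± 0.28 (adjusted p = 0.0217). Aplnr, the apelin receptor, was called only where the 7 times were set against control (-0.996 ± 0.25, adjusted p = 0.0205). In that comparison 8.07% of all probes were called. Of the 17 VEGF and angiopoietin genes 12 were tested. At 3 h 2 of the 12 were called lower, beside 2.98% of all probes, and at 72 h 2 were called higher, beside 5.87%. At 24 and 48 h 1 was called, beside 3.52% and 1.18%, while 4 of the 12 lay above 0, with median changes of -0.11 at both times. Besides Flt4 and Kdr the calls were for Nrp2, a co-receptor of VEGF, which fell at 3 h by 1.02 ± 0.28 (adjusted p = 0.0477), and for Pgf. Pgf, the placental growth factor that binds the receptor Flt1, rose by 2.61 ± 0.55 at 24 h, 2.78 ± 0.55 at 48 h and 2.26 ± 0.55 at 72 h (adjusted p = 0.0105, 0.0235 and 0.0197), the times at which Plvap was at -1.20, -1.19 and -0.66. The Pgf arrays at 24 h were wide apart, between 0.62 and 4.23 (SD 2.05, n = 3).

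Genes with functions near to each of the 3 were set beside them. For Plvap, 0 of 9 tested genes of caveolae and membrane coats (of 19) were called against sham at any time, beside 0% to 5.87% of all probes by time, so the count is near the background. The smallest p was that of Ehd3, an ATPase of membrane traffic, at 3 h (1.27 ± 0.39, adjusted p = 0.0673). At 24 h the median change of these 9 was 0.24, on the other side of 0 from Plvap. For Car4, 12 of 28 carbonic anhydrases and carriers of bicarbonate or gas were tested. At 24 h 1 of the 12 was called higher and 1 lower, beside 3.52% of all probes. At 72 h 1 was called, beside 5.87%. Rhag, a gas channel of the red cell lineage, rose at 24 h by 1.55 ± 0.36 and at 72 h by 1.54 ± 0.36 (adjusted p = 0.0185 and 0.0157). Of 4 red cell genes tested, Rhag among them, 1 lay above 0 at 24 h and 2 at 72 h, with median changes of -0.04 and -0.14. Slc4a2, an anion exchanger that moves bicarbonate, fell at 24 h by 0.98 ± 0.26 (adjusted p = 0.0391). Car2, the cytosolic carbonic anhydrase II, was higher at late than at early times by 0.57 ± 0.15 (adjusted p = 0.0253), while the Car4 difference in that comparison was -0.66, or -0.22 without 72 h replicate 3. Of the 12 genes 2 were called higher and 1 lower there, beside 7.12% of all probes.

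For Cd36, 31 of 38 genes of fatty acid uptake and handling were tested. At 72 h 4 of the 31 were called, 1 higher and 3 lower, beside 5.87% of all probes, and 14 of the 31 lay above 0. Acsl3, an acyl-CoA synthetase, rose by 1.14 ± 0.32 (adjusted p = 0.0391). Acsl6, another of these enzymes, fell by 1.44 ± 0.29 (adjusted p = 0.00711). Fabp4, the fatty acid binding protein of fat cells, macrophages and capillaries, fell by 1.11 ± 0.29 (adjusted p = 0.0241), and Dgat1, which makes triglycerides, fell by 0.79 ± 0.23 (adjusted p = 0.0450). Fabp4 averaged -1.31 ± 0.30 at 72 h (SD, n = 3), against -0.19 ± 0.42 on sham arrays (n = 5), so it went the other way from Cd36. Earlier, Cpt1b, a carnitine transferase that takes fatty acids into mitochondria, rose by 0.77 ± 0.19 at 3 h and by 0.67 ± 0.19 at 24 h (adjusted p = 0.0279 and 0.0456), and the nuclear receptor gene Ppard fell at 3 h by 0.89 ± 0.24 (adjusted p = 0.0418). At each of these times 1 of the 31 was called higher and 1 lower, beside 2.98% and 3.52% of all probes. The list medians were -0.01 at 3 h and 0.006 at 24 h, with 15 and 16 of the 31 above 0. The median change of the 31 genes at 72 h was -0.02. Of 11 other genes of scavenger receptors, thrombospondins and the kinases Fyn, Lyn and Yes1, 5 were tested. Only Scarb1, the HDL receptor, was called against sham, falling at 3 h by 0.98 ± 0.21 (adjusted p = 0.0139), beside 2.98% of all probes.

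Markers of other cells moved at the same times. The median log2 ratio over 7 of 12 neutrophil genes ran between 0.54 and 1.75 on the 24 h arrays, 0.52 and 1.44 at 48 h, and 0.38 and 0.73 at 72 h, against -0.45 to 0.04 on sham arrays. At 1 h these medians were 0.26 to 0.83 and at 3 h 0.59 to 1.29, also above sham. At 72 h 4 of the 7 neutrophil genes were above 0 relative to sham, with a median change of 0.07. The 1 called was Mmp8, a neutrophil collagenase, which rose by 4.37 ± 0.70 (adjusted p = 0.00167), beside 5.87% of all probes. At 1, 24 and 48 h 0 of the 7 were called, beside 0%, 3.52% and 1.18% of all probes. At 3 h 1 was called, beside 2.98%. Ptprc, the pan-leukocyte gene CD45, fell at 24 h by 1.23 ± 0.24 (adjusted p = 0.00608). It was the 1 called of 9 lymphocyte genes tested at 24 h, where 3 of the 9 lay above 0 and the list median was -0.15. At 72 h the type II cell genes Sftpb and Sftpc fell by 1.50 and 1.65 (adjusted p = 0.00822 and 0.0459), and among 4 of 8 club cell genes Scgb1a1 fell by 2.15 (adjusted p = 0.0221) while the other 3 lay above 0, with a list median of 0.14. Medians over 5 of 8 type I cell genes were 0.86 to 1.76 at 72 h, against 1.06 to 2.38 on sham arrays. Of these 5 genes 1 was called, Akap5, which fell by 0.98 ± 0.23 (adjusted p = 0.0164). Relative to sham 0 of the 5 lay above 0, with a median change of -0.85. Lists of cells that also make Cd36 were read at 72 h. Macrophage genes (6 of 18) gave 0.01, -0.0003 and 0.67 on the 72 h arrays, against 0.18 to 0.61 on sham arrays. Of these 6 genes 2 lay above 0 relative to sham and 1, Fabp4, was called lower, with a median change of -0.32. Fat cell genes (6 of 10) gave -0.24 to 0.03, against -0.44 to -0.07 on sham arrays. Platelet genes (5 of 10) gave 0.10 to 0.20, against -0.25 to 0.29. The fat cell and platelet ranges overlapped those of sham. The part of these cells in the changes of Car4, Plvap and Cd36 was not tested.

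The sign of each called difference from sham held under each of the 18 other settings of the analysis, and its call did not. Plvap at 24 h was called under 10 of them, Car4 at 72 h under 9 and Cd36 at 72 h under 10.

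**Figure D4:**
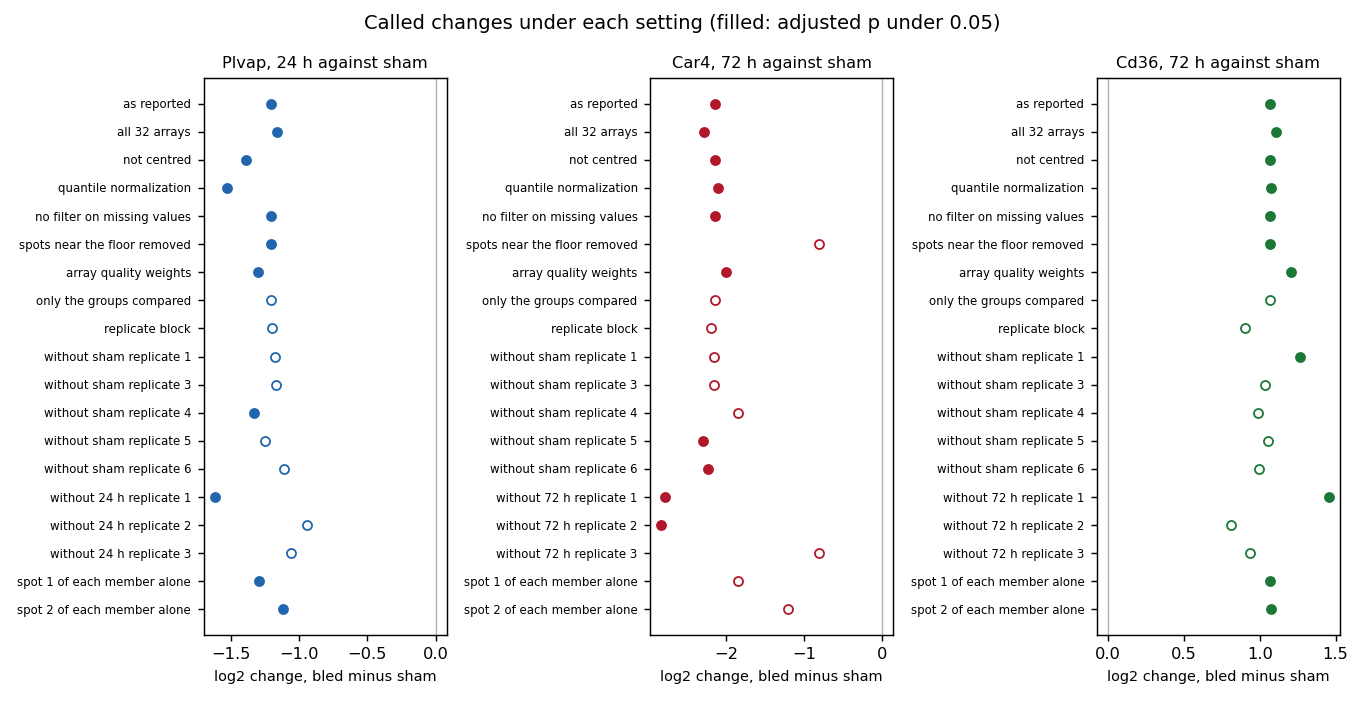
Log2 change, bled minus sham (x axis), of the 3 called differences under each setting of the analysis (y axis), filled where the adjusted p was under 0.05. All points lie on 1 side of 0 for each gene, and the Car4 difference was -0.81 without its 1 low array or spot.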

How the data were processed

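Lung RNA of 32 rat samples was set against an organ pool on 2-colour arrays. The deposited values are log2 ratios, as the authors made them. The sources used here do not give their normalization, scanner software or dye assignment. The direction, lung over pool, was read from lung genes standing above the pool. Ratios were centred on each array's median and the spots of a probe averaged (6344 probes, 5143 with 1 symbol).

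limma 3.58.1 in R 4.3.3 (lmFit, eBayes, two-sided) was fitted to 30 arrays in 9 groups, for 6112 probes with at least 2 values in every group, with Benjamini-Hochberg adjustment over all probes and a threshold of 0.05. Errors of differences are SEs of the fit. The fit was tested on simulated data. Correlations used SciPy 1.17.1 with 100000 permutations, two-sided. Likeness took probes with values on at least 28 arrays.

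The genes and lists were chosen with earlier results of these data known. All 3 genes were named in every comparison, with called genes of each list (up to 4), or the 3 of smallest p where none was called, and the 5 most alike probes. The text gives a part of these. Alternatives were all 32 arrays, no centring, quantile normalization, no filter, low spots removed, array weights, only the compared groups, a replicate block, single spots and each array left out.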

Additional observations from a re-analysis of the deposited data

Results flagged for a closer look

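Car4 stood at 1.32 on sham replicate 2 and at 1.79 on 16 h replicate 3, the arrays with high liver genes that were left out of the comparisons. Both values were above the highest control value of 0.42, and they carry no comparison here. With these arrays kept, the Car4 mean at 16 h was 0.37 ± 1.27 (SD, n = 3), against 0.63 ± 0.71 on sham arrays (n = 6).

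Cd36 on sham replicate 1, at 0.40, lay far from the other 4 sham arrays, which ran between -0.69 and -0.42. Its gap was 0.748 of the group's range, above Dixon's critical value of 0.71. Of 6 groups tested in this way 1 exceeded it, and chance alone gives about 1 in 20. Both spots of Cd36 on this array were high, at 0.44 and 0.37.

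The effects on Car4 at 72 h and at 24 h, each against sham, differed by -3.01 (limma, adjusted p = 0.0355), with 3 of 3 arrays at 72 h below all arrays at 24 h. This comparison was added after the values were seen, so its p-value is not that of a planned test. Over all probes 9.57% had every 72 h array below every 24 h array. The Car4 difference shrank to -1.68 without 72 h replicate 3.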

How the results depend on the processing

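Of 963 alternative values 873 kept their direction and their side of the threshold, but only 5 of the 45 results were called to begin with. Those 5 kept their call less often. Plvap at 24 h kept it under 10 of 18 settings, and Car4 and Cd36 at 72 h under 9 and 10 of 18. Car4 kept it in the joint test under 27 of 37, and at 72 h against 24 h under 7 of 16. With all 32 arrays the joint test of Car4 gave F = 4.06 (adjusted p = 0.0793), Car4 at 72 h against 24 h gave -3.01 (adjusted p = 0.0764), and the Plvap mean of 7 times was called (-0.69). Without centring the Plvap mean (-0.81) and joint test (F = 4.38) were called and Cd36 at 16 h was -0.038. Under quantile normalization Plvap was called at 48 h (-1.35) and in the mean (-0.94), and Cd36 at 16 h was -0.0068. With spots near the lowest ratio removed, Car4 was no longer called at 72 h (-0.81) or at 72 h against 24 h (-1.68), and its mean of 7 times was 0.076. With array weights Plvap was called at 48 h (-1.08), in the joint test (F = 4.86) and in the mean (-0.74), Cd36 was called in the joint test (F = 3.70) and in the mean (0.53), Car4 lost its call at 72 h against 24 h (-3.12), and its mean was 0.054 and sham against control -0.023. With only the compared groups in the fit, the calls of Plvap at 24 h (-1.20), Car4 at 72 h (-2.14), Cd36 at 72 h (1.07), Car4 in the joint test (F = 4.50) and Car4 at 72 h against 24 h (-3.01) were lost, in fits with fewer arrays. On the first spot alone Car4 was -1.85 at 72 h, uncalled, and its mean was 0.043. On the second spot alone Car4 was -1.21 at 72 h, -1.56 at 72 h against 24 h and F = 3.96 in the joint test, all uncalled, and Cd36 at 16 h was -0.090. The correlation of Plvap with Cd36 within groups was 0.045. Why calls and signs differed between settings was not tested.

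The replicate numbers only name samples: deviations of 94 same-numbered pairs of arrays correlated at a median of 0.00 (-0.53 to 0.38). With the replicate block all 5 calls were lost, with Plvap at 24 h -1.20, Car4 at 72 h -2.20, Cd36 at 72 h 0.90, Car4 in the joint test F = 4.90 and Car4 at 72 h against 24 h -3.01 (adjusted p 0.0544, 0.0899, 0.154, 0.0677 and 0.0686). Under it Plvap at 6 h was 0.019, Cd36 at 16 h -0.082 and Cd36 in sham against control 0.16.

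Leaving out 1 array at a time gave ranges of -1.62 to -0.94 for Plvap at 24 h, -1.31 to -0.996 for Plvap at 48 h, -2.83 to -0.81 for Car4 at 72 h, 0.81 to 1.46 for Cd36 at 72 h and -3.69 to -1.68 for Car4 at 72 h against 24 h. The joint test ranged over F = 4.40 to 6.25 for Car4 and 3.30 to 5.60 for Plvap. The mean of 7 times ranged over -0.87 to -0.65 for Plvap and -0.27 to 0.18 for Car4. Late against early times ranged over -0.89 to -0.22 for Car4, -0.61 to -0.39 for Plvap and -0.033 to 0.18 for Cd36. Among uncalled values, Plvap ranged over -0.84 to -0.37 at 1 h and -0.98 to -0.12 at 16 h, Car4 ranged over -0.21 to 0.59 at 48 h and -0.031 to 0.42 in sham against control, and Cd36 over -0.30 to 0.34 at 16 h and -0.21 to 0.12 in sham against control.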

Other observations

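Lep, the hormone gene of fat cells, fell at 24 h by 1.76 ± 0.33 on the log2 scale (adjusted p = 0.0053) and at 72 h by 1.13 ± 0.33 (adjusted p = 0.0453), and Fabp4, which fat cells and capillaries both express, fell at 24 h by 1.17 ± 0.29 (adjusted p = 0.0239). Of 6 fat cell genes tested these were the 2 called at 24 h and 72 h, beside 3.52% and 5.87% of all probes. At both times 3 of the 6 lay above 0, with list medians of -0.036 at 24 h and 0.078 at 72 h. Cd36 differed from sham by 0.31 at 24 h. F2, the prothrombin gene, rose at 3, 24, 48 and 72 h by 1.14, 0.96, 1.14 and 1.21. Of the 27 liver genes only F2 was called at 3, 24 and 48 h, beside 2.98%, 3.52% and 1.18% of all probes. At 72 h Fga was also called, falling by 1.33 ± 0.32 (adjusted p = 0.0178), beside 5.87% of all probes. At 3, 24, 48 and 72 h 16, 20, 15 and 15 of the 27 lay above 0. Array medians over the 27 were -0.47 to -0.33 at 3 h, -0.39 to -0.04 at 24 h, -1.18 to 0.18 at 48 h and -0.68 to -0.46 at 72 h. On sham arrays they were -0.99 to -0.54. Gp5, a platelet membrane glycoprotein gene, fell at 3 h by 2.29 ± 0.59 (adjusted p = 0.0366). It was the 1 called of 5 platelet genes tested, beside 2.98% of all probes. At 3 h 2 of the 5 lay above 0, with a list median of -0.27.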
